A study of Mus musculus with 12 samples.

Results

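Genes of meiosis and of the piRNA pathway were followed across 6 groups of mouse pluripotent cells and tissue. The list held 44 genes, and a gene was measured where a probe set carried its symbol alone. That was so for 42 of the 44, out of 22180 genes on the arrays, with 1 probe set each. Sycp3, which codes for a protein of the chromosome axis, shared its probe set with other genes, and Fkbp6, a cochaperone gene of the piRNA pathway, had no probe set of its own. Both were left out.

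RNA of each group was measured on 2 of 12 microarrays. The rsEpiSC E6.5 and rsEpiSC E5.75 lines came from embryos of embryonic day (E) 6.5 and 5.75 and were kept with the Wnt inhibitor IWR1 at 2.5 µM and, at 20 ng/ml, a factor left unnamed in the labels. Other label fields call them intrinsic state cells or IS-EPIs. Epiblast stem cells (EpiSC) were derived at E5.75 and kept in KSR, a serum replacement, at 20%, with Activin A (20 ng/ml) and FGF2 (12 ng/ml). The epiblast E6.5 and epiblast E5.75 groups were tissue taken from the embryo. Embryonic stem cells (ESC) were derived at E3.5 and kept with CHIR99021 at 3 µM, which inhibits GSK3, PD0325901 at 1 µM, which inhibits MEK, and LIF. All lines grew in N2B27 medium on mouse embryonic fibroblasts (MEFs). Every sample carries OCT4-deltaPE-GFP, a green fluorescent reporter under Oct4 control sequences without the proximal enhancer, on a cross with C57BL. The digits that follow C57BL and the passage field count up over the arrays and were not used. Nothing says how many lines, clones or embryos stand behind an array, or that replicates are separate cultures or animals, so a p-value here reflects just the scatter among these samples, and that scatter may be technical.

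Meiosis reduces the chromosome set of germ cells to a single copy. Homologous chromosomes are bound along protein axes and joined by the synaptonemal complex, while programmed DNA breaks are repaired by recombination. piRNAs are small RNAs that guide PIWI proteins to transposon transcripts, and their production in germ cells needs tudor domain proteins, RNA helicases and other cofactors. Many of these genes are known to be silent in somatic cells through promoter DNA methylation and through repressor complexes such as the one that contains MGA, MAX and E2F6. A part of them is known to be transcribed at a low level in mouse embryonic stem cells.

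Signals are on the log2 scale as deposited, so a difference of 1 is a doubling, and levels are compared between groups within a probe set, not between genes. Replicate arrays correlated over the 42 genes between 0.857 and 0.970. Of 10 markers of naive pluripotency, all 10 fell against ESC in each of the other 5 groups. Of 8 markers of the primed state, 8 rose in rsEpiSC E6.5, 6 in rsEpiSC E5.75, 3 in EpiSC, 6 in epiblast E6.5 and 8 in epiblast E5.75, with ESC as the comparator. The mean log2 signal of 11 fibroblast markers was 4.71 and 4.78 in rsEpiSC E6.5, 5.30 and 5.38 in rsEpiSC E5.75, 5.64 and 6.11 in EpiSC, 4.46 and 4.50 in epiblast E6.5, 4.62 and 4.67 in epiblast E5.75, and 4.19 and 4.45 in ESC. It was higher on every EpiSC and rsEpiSC array than on any tissue or ESC array, and 4 of the 11 markers rose in EpiSC against ESC. In rsEpiSC E6.5 the margin over epiblast E5.75 was small, and the markers differed in direction. There the mean signal of Mmp2 was 7.95 against 5.47 in epiblast E5.75, and that of Dcn was 2.97 against 5.30. The part of fibroblast RNA in the results below was not tested. The lower quartile over all genes lay between 3.57 and 3.77 on the 4 tissue arrays and between 3.31 and 3.38 on the 8 cultured arrays, so weakly detected genes read higher on tissue arrays.

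The genes were low in EpiSC and rsEpiSC and higher in epiblast tissue and ESC. The median log2 signal over the 42 was 3.34 in rsEpiSC E6.5, 3.32 in rsEpiSC E5.75, 3.37 in EpiSC, 4.11 in epiblast E6.5, then 4.50 in epiblast E5.75, and 4.08 in ESC. By raw signal, the group mean was highest in epiblast E5.75 for 17 genes and in ESC for 16. It was highest in rsEpiSC E6.5 for none of the 42. Weakly detected genes read higher on tissue arrays, so these counts may partly reflect the scale of the arrays. By mean percentile among all genes of an array, Boll, highest by signal in epiblast E5.75, was lowest there (11.61). Piwil4 (27.15) and Tdrd1 (24.16) were highest in rsEpiSC E6.5 by percentile. The median percentile of the 42 was 24.39 to 26.03 in EpiSC and rsEpiSC and 37.69 to 46.05 in tissue and ESC. Tests are moderated tests of limma on group means, and a gene rose or fell where the p adjusted by Benjamini-Hochberg over all 22180 genes was under 0.05. Differences carry the fit's standard error after ±, and each group has 2 arrays. The genes were chosen with earlier results of these data known. Counts and medians set beside those of all genes therefore describe the list and do not test it. Many signals are low, so a floor was also tried, in which values below 3.77, the highest lower quartile of any array, were set to that level.

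**Figure D1:**
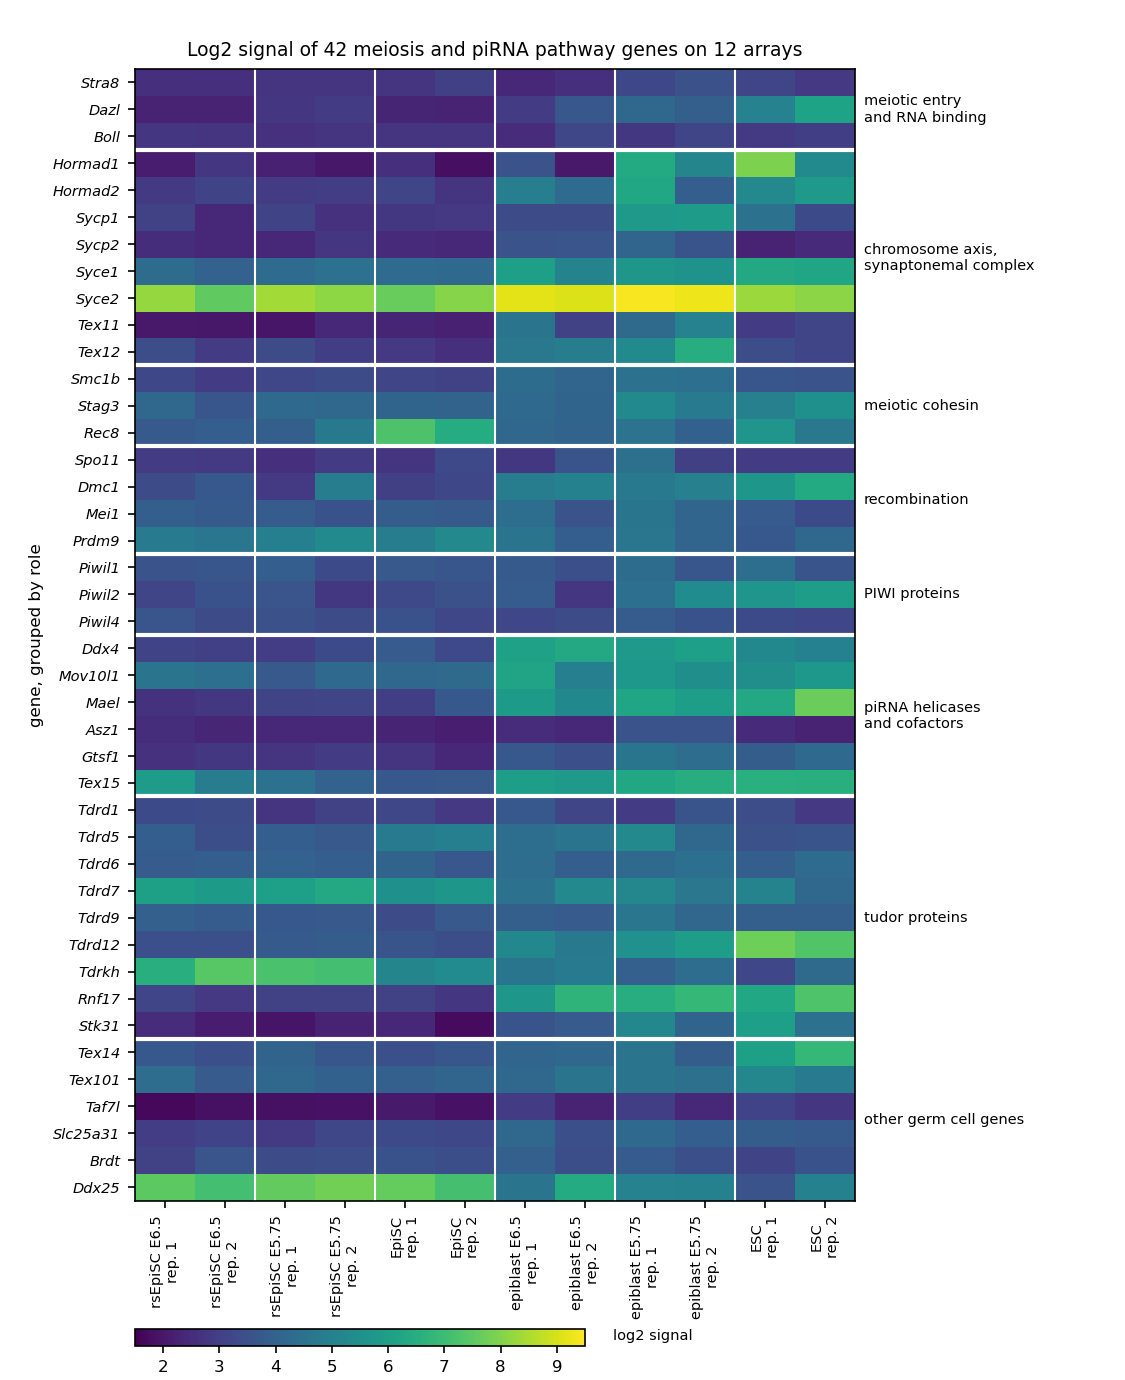
Log2 signal of the 42 genes (rows, by role) on the 12 arrays (columns, 2 per group). Colour stands for log2 signal and is to be compared along a row. The rows of the chromosome axis and of the piRNA cofactors, and those of Tdrd12, Rnf17 and Stk31 among the tudor genes, are darker on the 6 arrays of EpiSC and rsEpiSC than on the epiblast E5.75 arrays; Tdrkh and Ddx25 run the other way.

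In EpiSC against ESC, 16 of the 42 genes fell and 5 rose, where 6.29% of all genes passed, 2.7% lower and 3.6% higher. The median difference of the 42 was -0.56, against 0.0049 over all genes. In rsEpiSC E5.75 against ESC, 18 fell and 4 rose, with 10.3% of all genes passing (4.8% lower, 5.49% higher), and the median was -0.80 against 0.02. In rsEpiSC E6.5 against ESC, 17 fell and 3 rose, with 8.96% of all genes passing (4.55% lower, 4.41% higher), and the median was -0.86 against 0.02. With values below 3.77 set to that level, 12 of the 42 fell and 2 rose in EpiSC against ESC. Against ESC, 14 fell and 4 rose in rsEpiSC E5.75, and 12 fell and 2 rose in rsEpiSC E6.5. Of 18634 genes then tested, 1278, 2118 and 1782 passed in these comparisons. The 3 comparisons share the ESC arrays and are not independent of each other. In bulk samples such as these, fewer cells that transcribe a gene and less RNA of it per cell cannot be told apart.

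Leaving out 1 array at a time lowered the counts to between 14 and 18 in EpiSC against ESC, between 13 and 19 in rsEpiSC E5.75 against ESC and between 14 and 17 in rsEpiSC E6.5 against ESC. The count of 13, which moved by more than 1.5 times, was that without rsEpiSC E5.75 replicate 1. It came with 1027 calls over all genes, against 2282 with all arrays. In EpiSC against ESC, 11 of the 21 calls held in every alternative run: Dazl, Syce1, Dmc1, Piwil2, Ddx4, Mael, Tex15, Tdrd12, Rnf17 and Tex14 fell and Ddx25 rose.

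Against ESC, the tissue groups gave a mixed picture. In epiblast E6.5, 8 of the 42 fell and 4 rose, where 19.5% of all genes passed (9.76% lower, 9.77% higher). In epiblast E5.75, 3 fell and 9 rose, where 21.5% of all genes passed (10.8% lower, 10.6% higher). The 12 that passed in each are 28.6% of the 42. The median differences were -0.06 in epiblast E6.5 and 0.23 in epiblast E5.75, against 0.14 and 0.18 over all genes. After quantile normalization the medians over all genes were 0.04 and 0.07. In epiblast E6.5, 8 of the 42 then fell and 4 rose, and in epiblast E5.75, 3 fell and 6 rose. Over all genes, 3754 and 3571 passed in these runs, against 4332 and 4762. With values below 3.77 set to that level, 7 fell and 4 rose in epiblast E6.5, and 5 fell and 6 rose in epiblast E5.75. Of 18634 genes then tested, 3615 and 3697 passed. In fits on only the 4 arrays compared, 7 of the 42 passed in epiblast E6.5 and 6 in epiblast E5.75, when 2374 and 1261 genes passed in all. Without epiblast E6.5 replicate 2 the count there was also 7.

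Against tissue, the EpiSC and rsEpiSC lines had lower signals. In EpiSC against epiblast E5.75, 24 of the 42 fell and 2 rose, where 24% of all genes passed, 11.4% lower and 12.6% higher. The median was -1.14, against -0.19 over all genes. In rsEpiSC E5.75 against epiblast E5.75, which shares those tissue arrays, 21 fell and 3 rose, where 21.5% of all genes passed (10% lower, 11.5% higher), and the median was -1.01 against -0.16. In rsEpiSC E6.5 against epiblast E6.5, 11 fell and 1 rose, where 12.5% of all genes passed (5.78% lower, 6.72% higher), and the median was -0.53 against -0.10. That last count was 3 without rsEpiSC E6.5 replicate 2, when 553 genes passed in all against 2772, and 20 with array weights, when 3863 did. The calls of Ddx4, Mael and Rnf17 in rsEpiSC E6.5 against epiblast E6.5 held in every alternative run. With values below 3.77 set to that level, 15 of the 42 fell and 3 rose in EpiSC against epiblast E5.75. In rsEpiSC E5.75 against epiblast E5.75, 15 fell and 2 rose. In rsEpiSC E6.5 against epiblast E6.5, 7 fell and 1 rose. Of 18634 genes then tested, 4248, 3652 and 2077 passed in these comparisons.

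**Figure D2:**
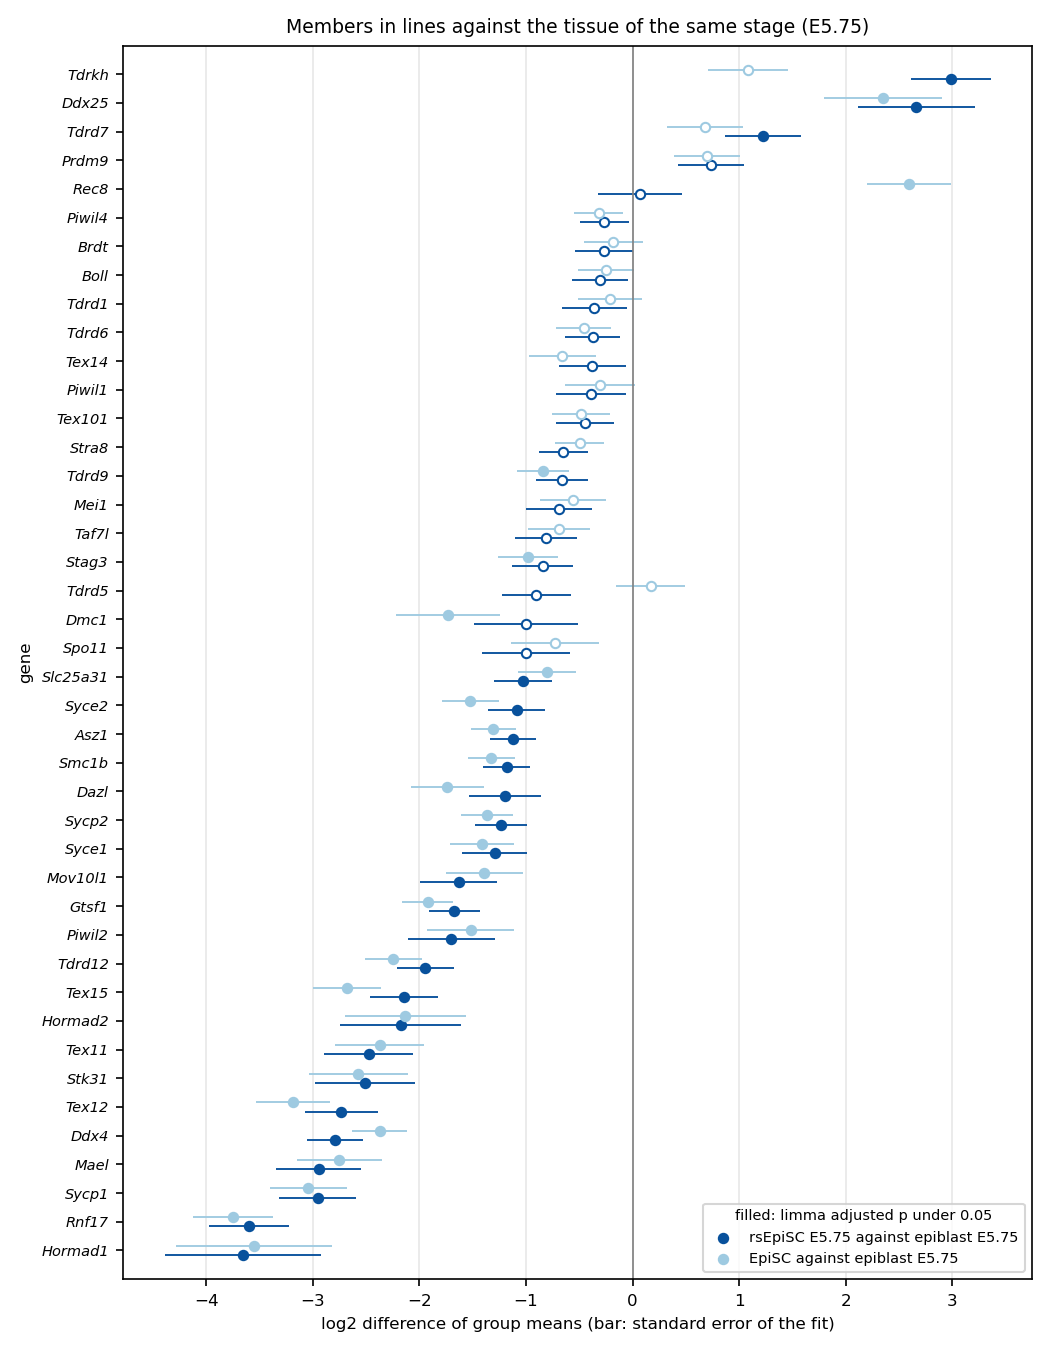
Log2 differences of each of the 42 genes in rsEpiSC E5.75 and in EpiSC, each against epiblast E5.75, with the standard error of the fit as bars and filled points where the adjusted p was under 0.05. Both comparisons use the same 2 tissue arrays. Most points lie left of 0, and Ddx25 lies right of 0 and is filled in both.

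Among the genes of meiotic entry, Dazl was the one that changed. It codes for an RNA-binding protein that licenses germ cells for meiosis. Dazl log2 signals were 2.31 and 2.30 in rsEpiSC E6.5, 2.77 and 2.93 in rsEpiSC E5.75, 2.33 and 2.29 in EpiSC, 2.94 and 3.67 in epiblast E6.5, 4.18 and 3.91 in epiblast E5.75, and 5.06 and 6.15 in ESC. The ESC arrays were the highest and overlapped with no other group, and the EpiSC and rsEpiSC arrays were the lowest. Dazl fell in EpiSC against ESC by 3.29 ± 0.34, a 9.81-fold difference (limma, Benjamini-Hochberg adjusted p = 0.000124). The EpiSC signals lie below 3.77, and with that floor the difference was -1.83, a 3.56-fold difference (adjusted p = 0.00598). It also fell in epiblast E6.5 (-2.30 ± 0.34, adjusted p = 0.000768) and in epiblast E5.75 (-1.55 ± 0.34, adjusted p = 0.00809), both against ESC, though not in epiblast E5.75 without ESC replicate 2. Stra8, the retinoic acid target gene that starts meiosis, had signals between 2.42 and 3.48 over the 12 arrays and passed in no comparison. Boll, a gene of the same family as Dazl, lay between 2.52 and 3.21 and passed in none either.

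Of the 8 measured genes of the chromosome axis and synaptonemal complex, Hormad1, Hormad2 and Syce1 fell against ESC in rsEpiSC E6.5, in rsEpiSC E5.75 and in EpiSC. All 8 fell in EpiSC and in rsEpiSC E5.75 against epiblast E5.75. With the floor of 3.77, Hormad1, Hormad2, Sycp2 and Tex11 no longer passed in either of these. Hormad1 codes for an axis protein that supports break formation and monitors whether chromosomes have paired. Hormad1 log2 signals were 2.10 and 2.78 in rsEpiSC E6.5, 2.23 and 2.00 in rsEpiSC E5.75, 2.62 and 1.83 in EpiSC, 3.54 and 2.04 in epiblast E6.5, 6.40 and 5.14 in epiblast E5.75, and 7.92 and 5.30 in ESC. The ESC arrays differed from each other by more than in any other group for this gene, and ESC and epiblast E5.75 overlapped. In EpiSC against ESC Hormad1 fell by 4.39 ± 0.73 (adjusted p = 0.0031), and in epiblast E6.5 against ESC by 3.83 ± 0.73 (adjusted p = 0.00377). In epiblast E5.75 against ESC it did not pass (-0.84 ± 0.73, adjusted p = 0.426). Setting values below 3.77 to that level gave -2.84 in EpiSC (adjusted p = 0.0501) and in epiblast E6.5 (adjusted p = 0.0247), each against ESC.

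Sycp1 and Tex12 had another order, with the highest signals in epiblast E5.75. Sycp1 codes for the transverse filament of the complex. Sycp1 log2 signals were 3.08 and 2.39 in rsEpiSC E6.5, 3.15 and 2.65 in rsEpiSC E5.75, 2.79 and 2.84 in EpiSC, 3.32 and 3.37 in epiblast E6.5, 5.82 and 5.89 in epiblast E5.75, and 4.50 and 3.31 in ESC. The epiblast E5.75 arrays stood above all others. Sycp1 rose in epiblast E5.75 against ESC by 1.95 ± 0.36 (adjusted p = 0.00302) and fell in EpiSC against epiblast E5.75 by 3.04 ± 0.36 (adjusted p = 0.000201), or by 2.09 with the floor (adjusted p = 0.000433). In EpiSC against ESC it did not pass (-1.09 ± 0.36, adjusted p = 0.114).

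Tex12 codes for a component of the central element. Tex12 log2 signals were 3.42 and 2.91 in rsEpiSC E6.5, 3.34 and 2.99 in rsEpiSC E5.75, 2.82 and 2.59 in EpiSC, 4.70 and 4.86 in epiblast E6.5, 5.31 and 6.48 in epiblast E5.75, and 3.38 and 3.19 in ESC. All 4 tissue arrays were above all 8 cultured arrays, and ESC lay among the rsEpiSC values. Tex12 rose against ESC in epiblast E5.75 (2.61 ± 0.34, adjusted p = 0.000392) and in epiblast E6.5 (1.5 ± 0.34, adjusted p = 0.01), and fell in EpiSC against epiblast E5.75 (-3.19 ± 0.34, adjusted p = 0.000119). That fall was 4.36-fold with the floor (adjusted p = 0.00209). With the floor, the rise against ESC was 2.125 in epiblast E5.75 (adjusted p = 0.00212) and 1.01 in epiblast E6.5 (adjusted p = 0.0459). The call in epiblast E6.5 was lost without ESC replicate 2 and without epiblast E6.5 replicate 2. Syce3, another central element gene that is not among the 42, had signals of 3.67 and 3.63 in EpiSC, 7.26 and 7.18 in epiblast E5.75 and 3.94 and 5.92 in ESC.

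Of the other genes of this role, Tex11, an X-linked gene needed for crossovers, rose in epiblast E5.75 against ESC (1.64 ± 0.42, adjusted p = 0.0166). So did Sycp2, which codes for an axis protein (1.46 ± 0.24, adjusted p = 0.00178), and Syce2, a central element gene (1.16 ± 0.27, adjusted p = 0.0101). The Sycp2 signals, 3.56 to 4.10 in tissue and 2.28 to 2.77 in all cultured cells, lie at the low end of the range. With values below 3.77 set to that level, its difference was 0.17 (adjusted p = 0.243) and that of Tex11 was 0.89 (adjusted p = 0.0556). The rise of Tex11 was also lost without ESC replicate 1 or epiblast E5.75 replicate 2, and that of Syce2 without ESC replicate 2. Syce1, a central element gene, had signals of 4.01 to 4.48 in EpiSC and rsEpiSC and of 5.07 to 6.34 in tissue and ESC, with no overlap. It fell in EpiSC against ESC by 2.00 ± 0.30 (adjusted p = 0.00169). Hormad2, a gene of the Hormad1 family, fell in EpiSC against ESC by 2.60 ± 0.57 (adjusted p = 0.0162), but not without EpiSC replicate 1, EpiSC replicate 2 or ESC replicate 2, nor with the floor (-1.78, adjusted p = 0.152).

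**Figure D3:**
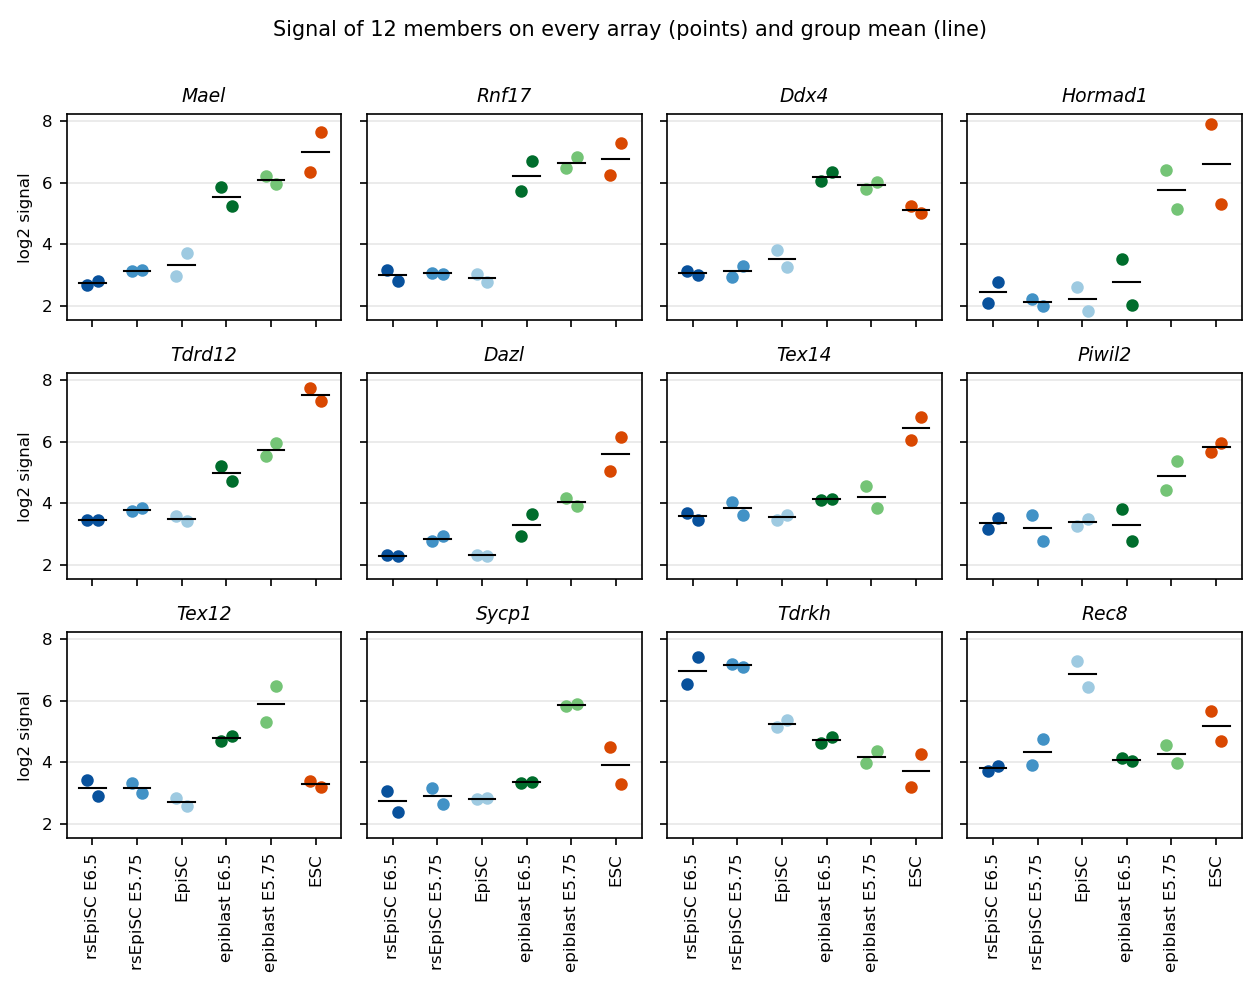
Log2 signal of 12 of the genes on each array; each panel is 1 gene, each point 1 array and each line the group mean, with 2 arrays per group. Mael, Rnf17 and Ddx4 are low on the EpiSC and rsEpiSC arrays and high in both tissue and ESC, Tdrd12, Dazl and Tex14 are highest in ESC, Tex12 and Sycp1 in epiblast E5.75, Tdrkh in rsEpiSC and Rec8 in EpiSC.

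The 3 meiotic cohesin genes did not move together. Rec8 codes for the cohesin subunit that holds sister chromatids through meiosis. Rec8 log2 signals were 3.72 and 3.88 in rsEpiSC E6.5, 3.93 and 4.75 in rsEpiSC E5.75, 7.28 and 6.46 in EpiSC, 4.14 and 4.04 in epiblast E6.5, 4.55 and 3.99 in epiblast E5.75, and 5.66 and 4.70 in ESC. The EpiSC arrays were above all others. Rec8 rose in EpiSC against epiblast E5.75 (2.60 ± 0.39, adjusted p = 0.000925) and against ESC (1.69 ± 0.39, adjusted p = 0.0235). The call against ESC was lost without EpiSC replicate 1 and without ESC replicate 2. In rsEpiSC E5.75 against EpiSC it fell by 2.53 ± 0.39 (adjusted p = 0.00328). Rec8 also fell in rsEpiSC E6.5 against ESC (-1.38), a call that held in 4 of 13 alternatives.

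Stag3, another subunit gene, fell in EpiSC against ESC by 1.18 ± 0.28 (adjusted p = 0.0277) and kept that call in 7 of 13 alternatives. Like Rec8, Stag3 also fell in rsEpiSC E6.5 against ESC (-1.335), a call that held in 10 of 13 alternatives. Smc1b, the meiotic partner of Smc1a, had signals of 2.90 to 3.33 in EpiSC and rsEpiSC, of 4.12 to 4.49 in tissue and of 3.55 and 3.65 in ESC. These ranges did not overlap. It fell in EpiSC against epiblast E5.75 by 1.33 ± 0.22 (adjusted p = 0.00156) and rose in epiblast E5.75 against ESC (0.85 ± 0.22, adjusted p = 0.0175), while EpiSC against ESC did not pass. The rise held in 7 of 13 alternatives and was lost without ESC replicate 1, ESC replicate 2 or epiblast E5.75 replicate 1. The fall was -0.68 with the floor (adjusted p = 0.00101).

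Of the 4 recombination genes, Dmc1, which codes for the meiotic recombinase, fell in EpiSC against ESC by 2.92 ± 0.49 (adjusted p = 0.00309), or by 2.28 with the floor (adjusted p = 0.00542). Its signals were 3.01 and 3.25 in EpiSC against 5.72 and 6.38 in ESC, and tissue lay between at 4.73 to 5.01. On the rsEpiSC E5.75 arrays they were 2.87 and 4.85, and the fall against ESC there (-2.19 ± 0.49, adjusted p = 0.0124) was lost without rsEpiSC E5.75 replicate 1 and without ESC replicate 2. Prdm9, the histone methyltransferase gene that places recombination hotspots, rose in EpiSC (1.16 ± 0.31, adjusted p = 0.0464) and in rsEpiSC E5.75 (1.20 ± 0.31, adjusted p = 0.0279) against ESC. Its signals were 4.64 to 5.29 in EpiSC and rsEpiSC and 3.69 and 4.16 in ESC, and the calls held in 4 of 13 alternatives for EpiSC and 8 of 13 for rsEpiSC E5.75. Spo11, the gene of the break-forming enzyme, and Mei1, which break formation needs, passed in no comparison.

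Among the PIWI genes, Piwil2 changed and Piwil1 and Piwil4 passed in no comparison. Piwil2 codes for MILI, which binds piRNAs in fetal and adult germ cells. Piwil2 log2 signals were 3.18 and 3.51 in rsEpiSC E6.5, 3.61 and 2.79 in rsEpiSC E5.75, 3.28 and 3.49 in EpiSC, 3.82 and 2.77 in epiblast E6.5, 4.42 and 5.38 in epiblast E5.75, and 5.66 and 5.97 in ESC. ESC was highest and epiblast E5.75 next, while epiblast E6.5 overlapped with the EpiSC and rsEpiSC lines. Piwil2 fell in EpiSC against ESC by 2.43 ± 0.41 (adjusted p = 0.0031) and in epiblast E6.5 against ESC by 2.52 ± 0.41 (adjusted p = 0.00132). Piwil1 lay between 3.29 and 4.39 and Piwil4 between 3.19 and 3.83 over the 12 arrays.

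The 6 helicase and cofactor genes of the piRNA pathway all fell in EpiSC and in rsEpiSC E5.75 against epiblast E5.75. Against ESC, 4 of 6 fell in rsEpiSC E6.5, 5 in rsEpiSC E5.75 and 5 in EpiSC. Mael codes for Maelstrom, which is needed to silence transposons in the male germ line. Mael log2 signals were 2.67 and 2.79 in rsEpiSC E6.5, 3.13 and 3.17 in rsEpiSC E5.75, 2.98 and 3.70 in EpiSC, 5.86 and 5.25 in epiblast E6.5, 6.23 and 5.96 in epiblast E5.75, and 6.34 and 7.66 in ESC. The EpiSC and rsEpiSC arrays were all below the tissue and ESC arrays. Mael fell against ESC in rsEpiSC E6.5 (-4.27 ± 0.40, adjusted p = 4.02e-05), rsEpiSC E5.75 (-3.85 ± 0.40, adjusted p = 6.74e-05) and EpiSC (-3.66 ± 0.40, adjusted p = 0.000175). It fell in EpiSC against epiblast E5.75 by 2.75 ± 0.40 (adjusted p = 0.000686). With the floor the difference from ESC was -3.23 in all 3 of these groups, with adjusted p between 0.00135 and 0.0021.

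Ddx4, the mouse Vasa homolog, codes for a germ cell RNA helicase. Ddx4 log2 signals were 3.15 and 3.00 in rsEpiSC E6.5, 2.95 and 3.29 in rsEpiSC E5.75, 3.80 and 3.28 in EpiSC, 6.06 and 6.34 in epiblast E6.5, 5.81 and 6.01 in epiblast E5.75, and 5.24 and 5.01 in ESC. The 4 tissue arrays were the highest, ESC next, and no EpiSC or rsEpiSC array overlapped with either. Ddx4 fell in rsEpiSC E6.5 against epiblast E6.5 by 3.13 ± 0.26 (adjusted p = 4.86e-05, and by 2.43 with the floor), in EpiSC against epiblast E5.75 by 2.37 ± 0.26 (adjusted p = 0.000133) and in EpiSC against ESC by 1.58 ± 0.26 (adjusted p = 0.00287). It rose in epiblast E6.5 against ESC (1.08 ± 0.26, adjusted p = 0.0132), but not without ESC replicate 2 or epiblast E6.5 replicate 2. The rise in epiblast E5.75 against ESC (0.79 ± 0.26, adjusted p = 0.0485) was lost in 9 of 13 alternatives, including each left-out array of these groups.

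Tex15, whose product binds MILI and serves piRNA-directed DNA methylation, had its lowest signals in EpiSC. Tex15 log2 signals were 5.89 and 4.89 in rsEpiSC E6.5, 4.49 and 4.01 in rsEpiSC E5.75, 3.69 and 3.74 in EpiSC, 5.95 and 5.84 in epiblast E6.5, 6.29 and 6.49 in epiblast E5.75, and 6.58 and 6.55 in ESC. The rsEpiSC E6.5 arrays reached up to the epiblast E6.5 values, and the EpiSC arrays lay below all others. Tex15 fell in EpiSC against ESC by 2.85 ± 0.32 (adjusted p = 0.000211). In rsEpiSC E6.5 against ESC the fall was 1.18 ± 0.32 (adjusted p = 0.0391) and was lost without either ESC array and without rsEpiSC E6.5 replicate 2.

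Gtsf1, a zinc finger partner of PIWI proteins, fell in EpiSC against epiblast E5.75 by 1.92 ± 0.24 (adjusted p = 0.000266) and against ESC by 1.49 ± 0.24 (adjusted p = 0.00246). With values below 3.77 set to that level, the difference from epiblast E5.75 was -0.72 (adjusted p = 0.00489) and that from ESC was -0.28 (adjusted p = 0.273). Mov10l1, a helicase that starts piRNA processing, fell in EpiSC against ESC by 1.37 ± 0.36 (adjusted p = 0.0422) and in rsEpiSC E5.75 against ESC by 1.61 ± 0.36 (adjusted p = 0.0129). These calls held in 4 and 11 of 13 alternatives, the first in none of the 4 with an array left out. Asz1, a mitochondrial membrane protein gene of the pathway, had signals of 3.54 and 3.55 in epiblast E5.75 and of 2.16 to 2.54 on the other 10 arrays. It rose in epiblast E5.75 against ESC (1.17 ± 0.21, adjusted p = 0.00281), on signals that all lie below 3.77.

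The 9 tudor domain genes split by direction. Tudor proteins bind methylated arginines of PIWI proteins and assemble the germ granules in which piRNAs are made. Tdrd12, Rnf17 and Stk31 fell against ESC in EpiSC and in both rsEpiSC groups, while Tdrkh rose in the same comparisons. Tdrd12, which is needed for secondary piRNA production, had log2 signals of 3.46 and 3.45 in rsEpiSC E6.5, 3.75 and 3.84 in rsEpiSC E5.75, 3.58 and 3.42 in EpiSC, 5.22 and 4.73 in epiblast E6.5, 5.54 and 5.95 in epiblast E5.75, and 7.74 and 7.32 in ESC. The EpiSC and rsEpiSC lines, tissue and ESC formed 3 ranges without overlap, with ESC highest. Tdrd12 fell in EpiSC against ESC by 4.03 ± 0.27, a 16.3-fold difference (adjusted p = 4.69e-06). It fell against ESC in epiblast E6.5 (-2.55 ± 0.27, adjusted p = 7.94e-05) and epiblast E5.75 (-1.78 ± 0.27, adjusted p = 0.000888), and in EpiSC against epiblast E5.75 (-2.24 ± 0.27, adjusted p = 0.000213).

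Rnf17, a tudor and RING domain gene that limits piRNA production in the mouse testis, separated the EpiSC and rsEpiSC lines from both tissue and ESC. Rnf17 log2 signals were 3.18 and 2.82 in rsEpiSC E6.5, 3.07 and 3.04 in rsEpiSC E5.75, 3.03 and 2.77 in EpiSC, 5.73 and 6.70 in epiblast E6.5, 6.48 and 6.83 in epiblast E5.75, and 6.26 and 7.30 in ESC. Tissue and ESC overlapped with each other and not with any EpiSC or rsEpiSC array. Rnf17 fell in EpiSC against ESC by 3.88 ± 0.38 (adjusted p = 8.03e-05) and against epiblast E5.75 by 3.75 ± 0.38 (adjusted p = 8.57e-05). The EpiSC signals lie below 3.77, and with the floor these differences were -3.01 (adjusted p = 0.00287) and -2.88 (adjusted p = 0.00194). In epiblast E5.75 against ESC the difference was -0.13 ± 0.38 (adjusted p = 0.824).

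Tdrkh, a mitochondrial tudor protein gene for piRNA trimming, ran the other way. Tdrkh log2 signals were 6.54 and 7.43 in rsEpiSC E6.5, 7.19 and 7.11 in rsEpiSC E5.75, 5.13 and 5.37 in EpiSC, 4.62 and 4.81 in epiblast E6.5, 3.97 and 4.36 in epiblast E5.75, and 3.19 and 4.26 in ESC. The rsEpiSC arrays were highest and the EpiSC arrays next, with no overlap between them or with tissue and ESC. Tdrkh rose in rsEpiSC E5.75 against ESC (3.42 ± 0.38, adjusted p = 0.000106), against epiblast E5.75 (2.98 ± 0.38, adjusted p = 0.000409) and against EpiSC (1.90 ± 0.38, adjusted p = 0.014). The rise in EpiSC against ESC (1.52 ± 0.38, adjusted p = 0.031) was lost without EpiSC replicate 1, EpiSC replicate 2 or ESC replicate 1.

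Stk31, a tudor and kinase domain gene, had signals of 1.74 to 2.51 in EpiSC and rsEpiSC, 3.59 to 5.20 in tissue and 4.50 and 6.00 in ESC, and fell in EpiSC against ESC by 3.19 ± 0.47 (adjusted p = 0.00134). With values below 3.77 set to that level the difference was -1.48 (adjusted p = 0.106). Tdrd7, a gene of germ granules that also acts in the lens, rose in rsEpiSC E5.75 against ESC (1.56 ± 0.36, adjusted p = 0.0146; held in 9 of 13 alternatives). Tdrd5 rose in EpiSC against ESC (1.35 ± 0.32, adjusted p = 0.0275), a call lost without any 1 of the 4 arrays. Tdrd1 and Tdrd6 passed in no comparison and stayed between 2.72 and 4.43, and Tdrd9 passed in EpiSC against epiblast E5.75 alone (-0.84 ± 0.24, adjusted p = 0.0269; held in 5 of 12 alternatives).

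Among 6 further germ cell genes, Tex14 codes for a protein of the intercellular bridges between germ cells. Tex14 log2 signals were 3.69 and 3.47 in rsEpiSC E6.5, 4.04 and 3.63 in rsEpiSC E5.75, 3.47 and 3.63 in EpiSC, 4.11 and 4.15 in epiblast E6.5, 4.56 and 3.86 in epiblast E5.75, and 6.06 and 6.82 in ESC. ESC stood above all other arrays. Tex14 fell against ESC in EpiSC (-2.89 ± 0.31, adjusted p = 0.000164), epiblast E6.5 (-2.31 ± 0.31, adjusted p = 0.000452) and epiblast E5.75 (-2.23 ± 0.31, adjusted p = 0.00058), and did not pass in EpiSC against epiblast E5.75 (-0.66 ± 0.31, adjusted p = 0.139).

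Ddx25, a testis RNA helicase gene, was high in EpiSC and rsEpiSC. Ddx25 log2 signals were 7.48 and 7.10 in rsEpiSC E6.5, 7.59 and 7.78 in rsEpiSC E5.75, 7.60 and 7.14 in EpiSC, 4.58 and 6.43 in epiblast E6.5, 5.04 and 5.0 in epiblast E5.75, and 3.53 and 5.01 in ESC. Every EpiSC and rsEpiSC array was above every tissue and ESC array. Ddx25 rose in EpiSC against ESC (3.10 ± 0.55, adjusted p = 0.00467) and against epiblast E5.75 (2.35 ± 0.55, adjusted p = 0.0103, lost without EpiSC replicate 1). Of the others, Taf7l, an X-linked transcription factor subunit gene, fell against ESC in rsEpiSC E6.5 (-1.17 ± 0.29, adjusted p = 0.024) and rsEpiSC E5.75 (-1.06 ± 0.29, adjusted p = 0.0349). The Taf7l signals, 1.68 to 3.10 over the 12 arrays, all lie below 3.77. Tex101, a sperm surface protein gene, fell in rsEpiSC E5.75 against ESC (-0.93 ± 0.27, adjusted p = 0.0469), Slc25a31, a mitochondrial carrier gene, fell against epiblast E5.75 in rsEpiSC E5.75 (-1.03 ± 0.27, adjusted p = 0.0203) and EpiSC (-0.80 ± 0.27, adjusted p = 0.0498), and Brdt, a bromodomain gene of the testis, passed in no comparison. Leaving out any 1 of the 4 arrays ended the call of Taf7l in both comparisons and that of Tex101, and the calls of Slc25a31 held in 6 of 12 alternatives for rsEpiSC E5.75 and 2 of 12 for EpiSC.

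**Figure D4:**
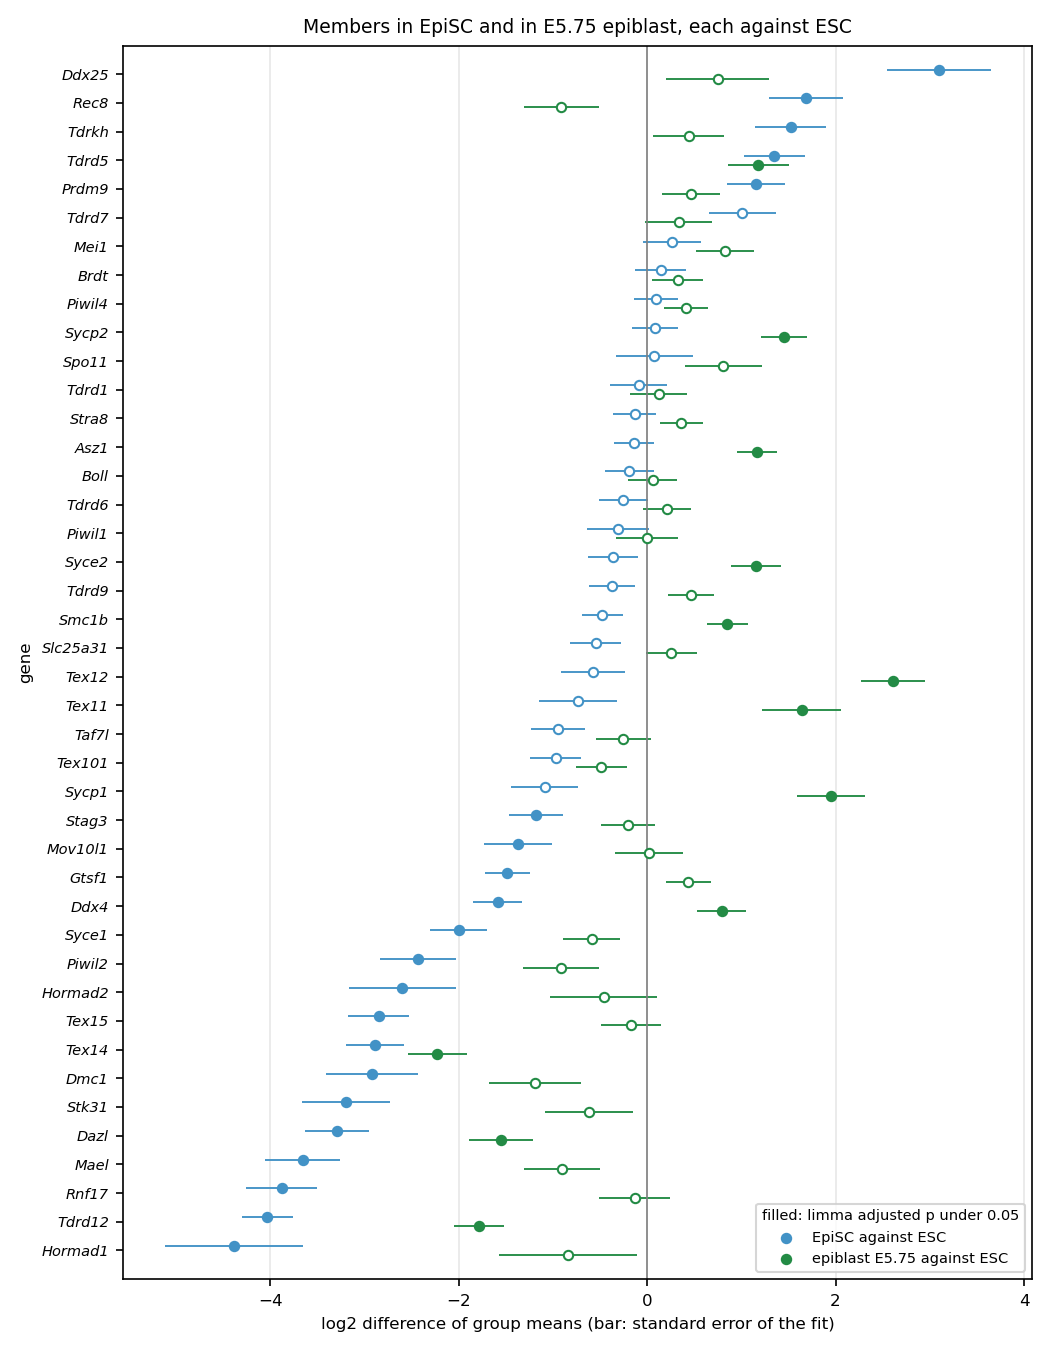
Log2 differences of each of the 42 genes in EpiSC and in epiblast E5.75, each against ESC, with the standard error of the fit as bars and filled points where the adjusted p was under 0.05. Both use the same 2 ESC arrays. Tdrd12, Dazl and Tex14 are filled left of 0 in both, Mael and Rnf17 in EpiSC alone, and Tex12, Sycp1, Sycp2 and Asz1 are filled right of 0 in epiblast E5.75.

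Of the genes with a promoter in the table used here, 6 were taken by the number of comparisons against ESC in which they passed, namely Tdrd12, Dazl, Tex14 and Ddx4 (5 of 5 comparisons) and Hormad1 and Mael (4 of 5). Stk31 and Stag3 also passed in 4 of 5, and the tie was settled by the mean size of the difference from ESC over the 5 comparisons. Their promoters are shown to let the sequence stand beside these patterns. Each line is the 250 bases before the transcription start, 5′ to 3′ on the strand of the gene, from RefSeq on GRCm38.p6. Capitals mark CACGTG, the E-box that MAX dimers such as MGA-MAX bind, and GCGGGAA on either strand, a site of the E2F family. Neither motif contains the other. Tdrd12 lies at chr7:35537716-35537965 (minus strand), Dazl at chr17:50293621-50293870 (minus), Tex14 at chr11:87404815-87405064 (plus), Ddx4 at chr13:112652311-112652560 (minus), Hormad1 at chr3:95559427-95559676 (plus) and Mael at chr1:166238745-166238994 (minus). Tdrd12 and Hormad1 have 2 listed starts, and the first listed was used.
Tdrd12: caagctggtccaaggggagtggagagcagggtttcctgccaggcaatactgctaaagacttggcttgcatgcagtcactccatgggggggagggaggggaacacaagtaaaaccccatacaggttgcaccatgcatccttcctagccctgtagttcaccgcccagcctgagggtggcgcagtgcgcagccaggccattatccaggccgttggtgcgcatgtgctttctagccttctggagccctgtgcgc
Dazl: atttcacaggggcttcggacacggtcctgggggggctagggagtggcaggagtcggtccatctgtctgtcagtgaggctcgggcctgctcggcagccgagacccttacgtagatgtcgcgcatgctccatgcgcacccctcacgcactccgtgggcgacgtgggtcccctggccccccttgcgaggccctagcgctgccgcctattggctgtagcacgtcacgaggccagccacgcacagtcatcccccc
Tex14: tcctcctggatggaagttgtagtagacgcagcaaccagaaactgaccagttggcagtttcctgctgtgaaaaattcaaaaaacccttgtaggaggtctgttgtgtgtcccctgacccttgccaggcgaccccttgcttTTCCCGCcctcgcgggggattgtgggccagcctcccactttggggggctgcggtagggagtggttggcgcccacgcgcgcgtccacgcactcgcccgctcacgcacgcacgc
Ddx4: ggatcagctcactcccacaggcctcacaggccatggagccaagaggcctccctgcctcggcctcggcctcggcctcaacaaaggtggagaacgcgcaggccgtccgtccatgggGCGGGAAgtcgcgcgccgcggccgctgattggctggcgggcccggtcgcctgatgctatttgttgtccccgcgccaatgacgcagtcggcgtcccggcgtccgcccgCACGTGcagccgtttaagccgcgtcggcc
Hormad1: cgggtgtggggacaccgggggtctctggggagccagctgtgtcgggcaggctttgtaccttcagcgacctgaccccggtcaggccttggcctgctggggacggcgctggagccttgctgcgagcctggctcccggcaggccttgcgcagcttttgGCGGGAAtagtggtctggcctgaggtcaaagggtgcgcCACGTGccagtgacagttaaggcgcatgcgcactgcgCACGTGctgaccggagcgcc
Mael: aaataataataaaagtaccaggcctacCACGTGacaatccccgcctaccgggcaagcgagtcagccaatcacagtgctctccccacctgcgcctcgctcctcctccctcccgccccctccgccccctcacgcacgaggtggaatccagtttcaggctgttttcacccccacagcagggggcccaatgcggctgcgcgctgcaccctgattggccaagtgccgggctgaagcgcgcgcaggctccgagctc

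The Ddx4 promoter held 31 CpG sites with 1 E-box and 1 E2F motif, and the Hormad1 promoter 19 CpG sites with 2 E-boxes and 1 E2F motif. Mael had 18 CpG sites and 1 E-box, Tex14 17 CpG sites and 1 E2F motif, and Dazl 20 CpG sites with neither motif. Tdrd12, which had the lowest adjusted p of the 42 in EpiSC against ESC, had 6 CpG sites and neither motif in this window. A match is a description of letters and not a binding site, and the absence of a match says only that these letters are not in these bases.

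Promoters of 36 of the 42 genes were in the table, and Tex11, Spo11, Piwil2, Tex15, Tdrd6 and Rnf17 were not. The E-box occurred in 15 of the 36 (41.7%) and in 1634 of all 27025 promoters (6.05%), and the E2F motif in 6 (16.7%) and in 1037 (3.84%). The ratio of observed to expected CpG had a median of 0.670 in the 36 and of 0.378 in all promoters. Among promoters with a ratio above 0.6, the E-box occurred in 11 of 21 (52.4%) against 893 of 9320 (9.58%). In EpiSC against ESC, 6 of the 15 genes with an E-box fell and 0 rose (median -0.94), and 7 of the 21 genes without one fell and 5 rose (median -0.14). In EpiSC against epiblast E5.75, 10 of 15 with an E-box fell and 0 rose (median -0.98), and 10 of 21 without one fell and 2 rose (median -0.66). The order of these shares was not the same throughout: in rsEpiSC E6.5 against epiblast E6.5, 3 of 15 with an E-box fell and 0 rose (median -0.61), and 6 of 21 without one fell and 1 rose (median -0.55). The difference between genes with and without the motif was not tested.

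**Figure D5:**
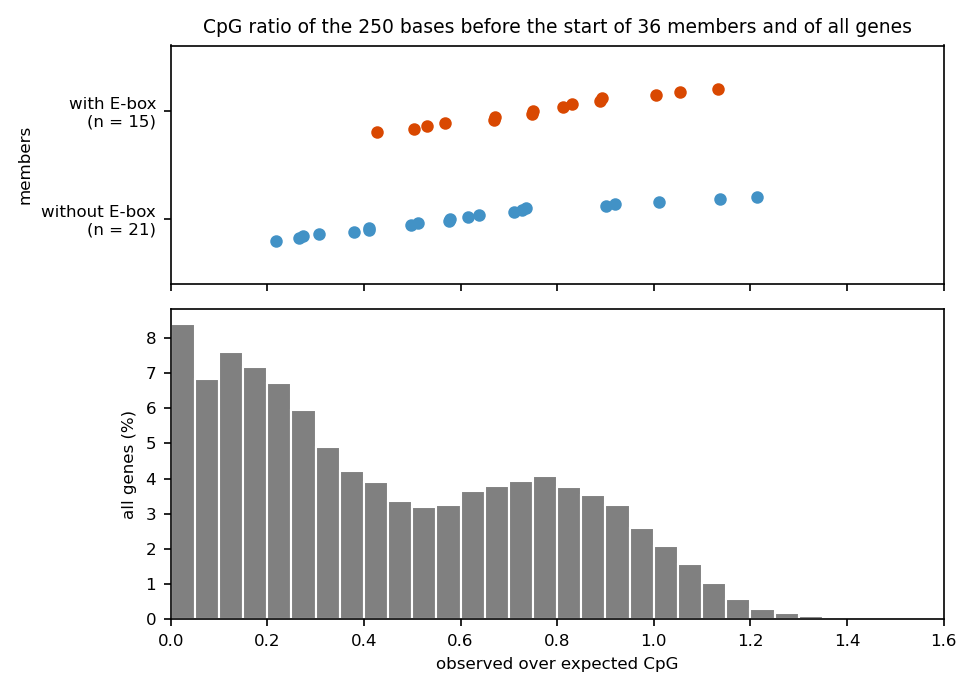
Observed over expected CpG of the 250 bases before the start. In the upper panel each point is the promoter of 1 of 36 of the genes, in separate rows with an E-box (n = 15) and without (n = 21). The lower panel gives all 27025 promoters, as the share of promoters in each bin. The promoters of the 36 genes sit further right, with a median of 0.670 against 0.378.

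Between the stages of the tissue, no gene of the 42 passed in epiblast E6.5 against epiblast E5.75, where 0.0225% of all genes did in limma (0.00902% lower, 0.0135% higher), and 10 of the 42 had an unadjusted p under 0.05, as did 12.7% of all genes. The values were lower in epiblast E6.5 for 36 of the 42 (median -0.31, against -0.01 over all genes). Sycp1 had 3.32 and 3.37 in epiblast E6.5 against 5.82 and 5.89 in epiblast E5.75, a difference of -2.51 ± 0.36 (adjusted p = 0.0548). It passed after quantile normalization (adjusted p = 0.0212), with a filter on low signal (adjusted p = 0.0469) and with values below 3.77 set to that level (adjusted p = 0.00535). It also passed without epiblast E5.75 replicate 2, but not with any other array left out. Nor did it pass with the replicate block, centred arrays or array weights. The same held for only the arrays compared, every probe set and the mean of a gene's probe sets. Hormad1 differed by -2.99 ± 0.73 (adjusted p = 0.169), Piwil2 by -1.61 ± 0.41 (adjusted p = 0.173) and Asz1 by -1.09 ± 0.21 (adjusted p = 0.132).

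Between the stages from which rsEpiSC lines were derived, no gene of the 42 passed in rsEpiSC E6.5 against rsEpiSC E5.75, where 0.0857% of all genes did (0.0225% lower, 0.0631% higher), and 1 had an unadjusted p under 0.05, as did 4.66% of all genes. That gene was Tex15, at 5.89 and 4.89 in rsEpiSC E6.5 against 4.49 and 4.01 in rsEpiSC E5.75 (1.14 ± 0.32, adjusted p = 0.482). The stage difference of rsEpiSC less the stage difference of tissue passed for none of the 42, with 0.00902% of all genes passing, all lower, and 8 of the 42 at an unadjusted p under 0.05, as were 8.65% of all genes. It was largest for Hormad1 (3.31 ± 1.03, adjusted p = 0.422) and Sycp1 (2.34 ± 0.51, adjusted p = 0.228). The spread between replicates was unequal, with a median SD over the 42 of 0.13 in rsEpiSC E6.5 and 0.15 in rsEpiSC E5.75 and of 0.30 in epiblast E6.5 and 0.27 in epiblast E5.75, while the fit uses 1 spread per gene.

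Between the media, 2 of the 42 passed in rsEpiSC E5.75 against EpiSC, where 3.87% of all genes did (2.31% lower, 1.56% higher), and the median of the 42 was 0.06. Rec8 fell and Tdrkh rose, with the values given above for each. Rec8 passed in 12 of 13 alternatives, all but the one without rsEpiSC E5.75 replicate 1. Tdrkh passed in 8 of 13, and its call was lost when any 1 of the 4 arrays was left out or when every probe set was tested. Tdrd5, at 3.89 and 3.73 in rsEpiSC E5.75 against 4.79 and 4.97 in EpiSC, did not pass (-1.07 ± 0.32, adjusted p = 0.109).

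The sex of lines and embryos is not labelled and the marker genes of the sex chromosomes were uneven. Eif2s3y, a gene of the Y chromosome, was at 7.64 and 7.36 in rsEpiSC E6.5, 5.16 and 2.33 in rsEpiSC E5.75, 1.81 and 2.86 in EpiSC, 8.10 to 8.55 on the tissue arrays, and 2.72 and 8.19 in ESC. Kdm5d, another Y gene, was at 6.30 and 6.14 in rsEpiSC E6.5, 4.56 and 2.53 in rsEpiSC E5.75, and 2.36 and 2.61 in EpiSC. It was at 4.61 to 5.50 on the tissue arrays, and at 2.51 and 2.14 in ESC, where it did not follow Eif2s3y. The Y gene Uty was at 2.71 and 5.17 in ESC. Xist, the RNA of the inactive X chromosome, had 3.17 and 2.65 in rsEpiSC E6.5, 8.23 and 10.19 in rsEpiSC E5.75, 9.84 and 8.72 in EpiSC, 8.41 to 9.05 on the tissue arrays, and 5.96 and 5.64 in ESC. The part of sex in the values of the 42 genes, of which Tex11 and Taf7l are X-linked, was not tested.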

How the data were processed

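RNA of 12 samples in 6 groups of 2 was analysed from 1 deposited table. The table holds log2 signals of 41345 probe sets, deposited by the authors after RMA in oligo (per the submitters' processing notes). Versions and settings of these steps and the array build are not stated in the sources used. The labels' protocol names a human array, but the probe set identifiers match a mouse table, which was used. Probe sets with 1 gene symbol (23521) gave 22180 genes, by the highest mean over all arrays where a gene had several. No filter on low signal was applied.

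Group means were compared in R 4.3.3 by limma 3.58.1 (lmFit on 6 groups and eBayes with a trend, 6 residual degrees of freedom), adjusted by Benjamini-Hochberg over 22180 genes in each of 12 comparisons. The fit was tested on simulated data. Precision is limited by the number of arrays. The genes and the lists beside them were chosen with earlier results of these data known. Any of the 42 may be named. From each other list, at most 4 genes that passed (by size of change) and at most 2 that did not may be named, and the sex-linked genes. Samples were not paired by replicate number, because nothing in the labels says that the numbers mark a shared culture, litter or day. Alternatives were a replicate block, quantile normalization, centred arrays, only the arrays compared, every probe set, the mean of a gene's probe sets, a filter on low signal, array weights, each array left out and, chosen after seeing the data, 1 floor for low values. The array weights were equal for the 2 arrays of a group, from 0.48 in epiblast E5.75 to 2.12 in rsEpiSC E6.5. That run therefore weighted groups and could not weigh down a single array. Promoters came from a RefSeq table of GRCm38.p6.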

Additional observations from a re-analysis of the deposited data

How the results depend on the processing

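Of 151 calls of single genes, none turned its direction under any alternative. Still passing were 143 with the replicate block, 127 after quantile normalization, 144 with centred arrays, 119 in fits on only the arrays compared, 119 over every probe set, 151 with the mean of a gene's probe sets, 138 of 138 with a filter on low signal, 141 with array weights, and 104 of 146 with values below 3.77 set to that level, an alternative chosen after seeing the data. Counts of the 42 genes that moved by more than 1.5 times were, for epiblast E6.5 against epiblast E5.75, 1 after quantile normalization, 1 with the filter and 2 with the floor, against 0. These runs called 13 of 22180, 8 of 15323 and 154 of 18634 genes in all, against 5 of 22180. In fits on only the arrays compared the counts were 6 for epiblast E5.75 against ESC and 7 for epiblast E6.5 against ESC, against 12 each. Over all genes, 1261 and 2374 then passed, against 4762 and 4332. For rsEpiSC E5.75 against EpiSC the count was 1 over every probe set, against 2, with 444 genes passing in all against 858. For rsEpiSC E6.5 against epiblast E6.5 it was 20 with array weights, against 12, with 3863 passing against 2772. The cause was not tested.

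With 1 array left out, counts ran between 14 and 18 in EpiSC against ESC, 13 and 19 in rsEpiSC E5.75 against ESC, 14 and 17 in rsEpiSC E6.5 against ESC, 8 and 12 in epiblast E5.75 against ESC, and 7 and 11 in epiblast E6.5 against ESC, where 7 was without epiblast E6.5 replicate 2. They were 1 in each case in rsEpiSC E5.75 against EpiSC, 0 in rsEpiSC E6.5 against rsEpiSC E5.75 and for the difference between stages, and 0 to 1 in epiblast E6.5 against epiblast E5.75. Against tissue they ran between 18 and 27 for EpiSC and between 16 and 27 for rsEpiSC E5.75 at E5.75, and between 3 and 14 for rsEpiSC E6.5 at E6.5, where 3 was without rsEpiSC E6.5 replicate 2. The array then alone in its group takes its spread from the other groups.

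The replicate block gave 19 in EpiSC against ESC instead of 21, 21 in rsEpiSC E5.75 against ESC instead of 22, and 19 in rsEpiSC E6.5 against ESC instead of 20. Over all genes, 1288, 2138 and 1857 then passed, against 1396, 2282 and 1988. The block left the count of the 42 as it was in the other comparisons (12 in each tissue group against ESC, and 26, 24 and 12 in EpiSC, rsEpiSC E5.75 and rsEpiSC E6.5 against tissue). Over all genes, 4066 then passed in epiblast E6.5 and 4462 in epiblast E5.75 against ESC, instead of 4332 and 4762. In the comparisons with tissue, 5016, 4459 and 2437 passed, instead of 5321, 4768 and 2772. Deviations of same-numbered arrays correlated between -0.26 and 0.06, and the value of -0.26 was that of EpiSC with ESC. Such correlations cannot show whether samples shared a day, batch or litter, and this was not tested. Many of the 42 genes sit near the low end of the signal range, and no detection call was used, so weak transcripts and background were not separated.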

Other observations

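Genes of the same processes outside the list of 42 were set beside them. Over all genes, 6.29% passed in EpiSC against ESC (2.7% lower, 3.6% higher), 24% in EpiSC against epiblast E5.75 (11.4% lower, 12.6% higher) and 21.5% in epiblast E5.75 against ESC (10.8% lower, 10.6% higher), and the counts of each list below stand beside these shares. Of 26 other meiosis genes measured, 3 fell in EpiSC against ESC, namely Rec114, which acts with Mei4 in break formation (-3.95 ± 0.34, adjusted p = 3.13e-05), Meioc, which keeps the meiotic program running (-1.96 ± 0.23, adjusted p = 0.000253), and Sohlh2, a germ cell transcription factor gene (-1.50 ± 0.35, adjusted p = 0.0228). The log2 signals of Rec114 were 4.47 and 4.04 in EpiSC, 5.59 and 4.65 in epiblast E5.75, and 8.55 and 7.86 in ESC. In epiblast E5.75 against ESC, 6 of the 26 rose and 2 fell. Syce3 (2.29 ± 0.52, adjusted p = 0.00997) and the cohesin gene Rad21l (1.71 ± 0.30, adjusted p = 0.00254) were among those that rose. Of 13 other piRNA genes, 1 fell in EpiSC against ESC, the trimmer nuclease gene Pnldc1 (-1.46 ± 0.26, adjusted p = 0.00462). In EpiSC against epiblast E5.75 none of these 13 passed in limma, against 7 falling and 1 rising among the 26 meiosis genes.

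Of 17 genes of repressors of germline genes, 1 fell in EpiSC against ESC, and it was Mga. Mga log2 signals were 8.31 and 8.28 in EpiSC against 9.43 and 9.57 in ESC (-1.20 ± 0.20, adjusted p = 0.00313). Of 8 DNA methylation genes, Dnmt3l (-4.51 ± 0.47, adjusted p = 0.00014), Tet2 (-3.20 ± 0.37, adjusted p = 0.00024) and Tet1 (-1.33 ± 0.30, adjusted p = 0.0187) fell in EpiSC against ESC and none rose. Dnmt3b, a de novo methyltransferase gene, had log2 signals of 7.58 and 9.31 in EpiSC and 11.43 and 11.59 in epiblast E5.75, and fell in EpiSC against epiblast E5.75 (-3.06 ± 0.55, adjusted p = 0.00251). Of 10 genes of primordial germ cells, the precursors of gametes, 4 fell in EpiSC against ESC. Dppa3, also known as Stella, had log2 signals of 2.51 and 2.98 in EpiSC, 6.02 and 7.27 in epiblast E5.75 and 6.97 and 6.78 in ESC. It fell in EpiSC against epiblast E5.75 (-3.90 ± 0.37, adjusted p = 5.95e-05), where 1 of the 10 fell and 1 rose. Tfap2c, a specifier of primordial germ cells, had 3.40 and 3.77 in epiblast E5.75 against 4.84 and 5.16 in ESC (-1.42 ± 0.25, adjusted p = 0.00243). In EpiSC against ESC, 1 of 10 visceral endoderm markers fell, 1 of 9 trophoblast markers fell and 0 of 9 markers of testis somatic and later germ cells passed. Whether these genes bear on the 42 was not tested.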
